A study of Rattus norvegicus with 24 samples.

Results

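The comparison is of fentanyl with saline in the nucleus accumbens (NAc) of female Sprague Dawley rats. Its members are the 7 libraries whose count columns carry the animal codes L (fentanyl, 4 rats, numbered 1, 2, 7 and 8) and SF (saline, 3 rats, numbered 1, 2 and 4), out of 24 libraries in the series. The labels call both groups female, and each library came from a different rat. All rats were killed by decapitation at the time of what would have been their last choice session. The series title names opioid withdrawal and a choice between fentanyl and food. The sources used here do not state dose, route, age or the time since the last exposure. Tissue was punched from both sides of the brain, ribosomal RNA was depleted and paired ends were sequenced. Another 7 NAc libraries from males, with 4 fentanyl and 3 saline rats, were fitted together with the females. They thus enter the low-count filter, the scaling and the estimate of spread. Their own contrast, and 5 libraries from the ventral tegmental area (VTA) of the same females, are used only for comparison.

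The NAc is the ventral part of the striatum. Most of its neurons are inhibitory spiny projection neurons, which receive dopamine from the VTA and glutamate from cortex, thalamus and limbic areas. Fentanyl is a potent agonist of the mu-opioid receptor, which is found on striatal neurons and on the inhibitory neurons that hold dopamine cells in check. Mitochondrial DNA is a small circular genome present in many copies per cell. It is transcribed as long precursors from both strands, and these are cut, largely at the tRNAs that lie between the protein genes, into messenger, ribosomal and transfer RNAs. All of its protein products are subunits of the respiratory chain or of ATP synthase.

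The deposited tables list 32552 features by Ensembl rat gene ID, of which 35 lie on chromosome MT, with no gene names. None of these IDs matched a symbol in the reference table used here, so nuclear genes are given by position as deposited (the build is not stated in what was used here), and tissue markers could not be checked by name. Fentanyl libraries held 3.54 M to 4.72 M counts and saline libraries 4.46 M to 5.01 M. Nuclear counts did not overlap between the groups: 2.24 M to 3.26 M with fentanyl and 3.30 M to 3.75 M with saline. Fentanyl rat 1 had the fewest counts and the highest mitochondrial share. No 2 libraries of a group were copies, with a chi-square per degree of freedom of 2.79 to 17.1 over 9 pairs. Levels below are CPM, counts scaled to one library total, with TMM factors, which take most genes to be unchanged. A feature passed where edgeR's quasi-likelihood test on all 14 NAc libraries gave a Benjamini-Hochberg adjusted p under 0.05.

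Many nuclear genes differed between the groups, most of them by less than 2-fold. Of 13219 nuclear genes tested, 1056 (7.99%) rose and 722 (5.46%) fell with fentanyl, which makes 13.5% called. The median log2 fold change was 0.61 among genes that rose and -0.55 among genes that fell, against -0.00 over all nuclear genes. Changes above 2-fold were seen in 204 genes that rose and 77 that fell, and changes above 4-fold in 29 and 3. Changes below 1.5-fold made up 488 of the genes that rose and 403 of those that fell. The 4 fentanyl rats lay wholly above the 3 saline rats for 978 of the 1056 genes that rose, and wholly below them for 681 of the 722 that fell. Over all nuclear genes the groups did not overlap for 24.9%, with fentanyl above saline for 12.7% and below for 12.2%. The number of calls was 749 without saline rat 1, 992 without saline rat 2, 914 without saline rat 4 and 1093 in a fit of the females alone. With all NAc libraries thinned to the lowest nuclear depth it was 1554, of which 1411 were among the 1778. The groups also did not overlap in nuclear depth or mitochondrial share, and a fit of nuclear features only, which leaves the mitochondrial counts out, called 1785. In bulk tissue, fewer cells of a type and less RNA per cell cannot be told apart.

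**Figure D1:**
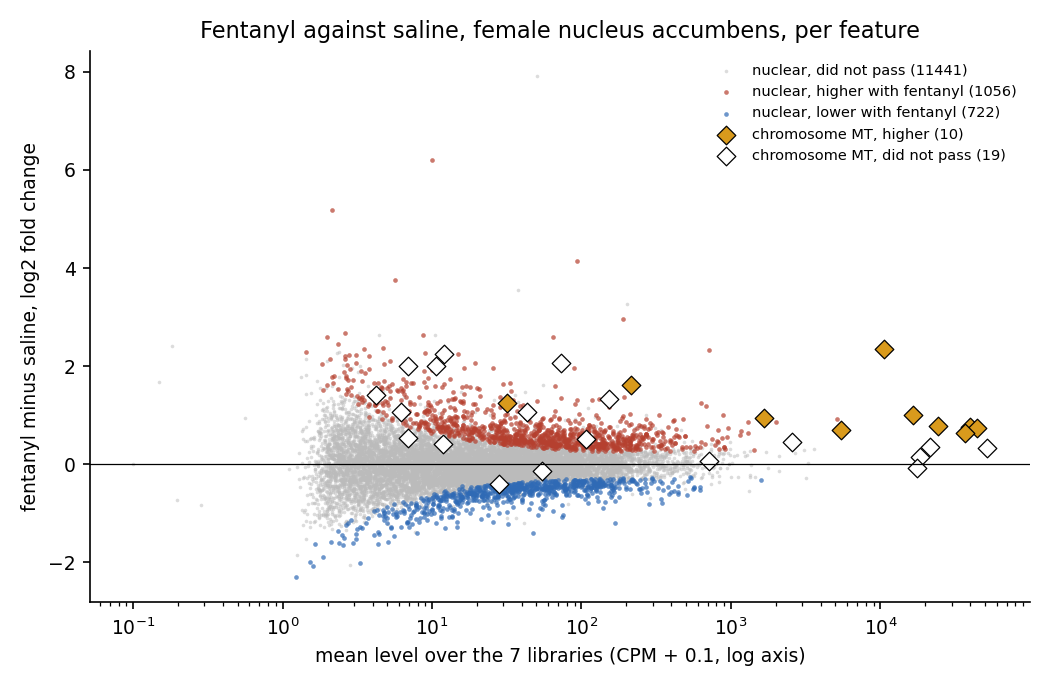
Each point is one feature of the female NAc, with its mean level over the 7 libraries (CPM + 0.1, log axis) and its log2 fold change, fentanyl minus saline. Coloured points passed at an adjusted p under 0.05: 1056 nuclear genes above the zero line and 722 below it. The diamonds are the 29 chromosome MT features tested, 10 of which passed, all above the line.

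Among called genes whose groups did not overlap, those with the smallest adjusted p had tight groups far from each other. ENSRNOG00000047067, a feature of 721 nt in 2 exons at 6029211 to 6029932 on chromosome 4 (plus strand), measured 41.7, 37.0, 33.3 and 38.0 CPM in fentanyl rats 1, 2, 7 and 8. In saline rats 1, 2 and 4 it measured 9.82, 9.46 and 9.35 CPM, so every fentanyl rat was far above every saline rat. Its log2 fold change was 1.97 ± 0.20 (SE; edgeR, adjusted p = 6.25e-06). ENSRNOG00000032825, a feature of 461 nt in 1 exon at 38024477 to 38024937 on chromosome 10 (minus strand), measured 42.1, 35.7, 47.3 and 43.9 CPM with fentanyl and 10.9, 14.2 and 15.7 CPM with saline. The groups were again well separated, with a log2 fold change of 1.63 ± 0.19 (edgeR, adjusted p = 2.74e-05). The next in this order that rose lies on chromosome 4 at 48852827 to 48928372, with means of 202 ± 22.5 and 89.4 ± 6.86 CPM (SD). The one after it, on chromosome 5 at 152325871 to 152326778, had 23.6 ± 2.06 and 7.77 ± 1.60 CPM. It overlaps 1 other listed feature on the same strand, so some of its reads may belong to that feature.

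Among the genes that fell, ENSRNOG00000034066 at 44990014 to 44993179 on chromosome 8 (plus strand, 9 exons) measured 108, 120, 104 and 101 CPM with fentanyl against 264, 239 and 241 CPM with saline. It overlaps 3 other listed features, so some of its reads may belong to them. Its log2 fold change was -1.19 ± 0.12 (edgeR, adjusted p = 6.25e-06). ENSRNOG00000016322 at 156876706 to 156878486 on chromosome 5 (plus strand, 2 exons, 409 nt) measured 26.6, 28.8, 25 and 30.9 CPM against 76.4, 72.3 and 73.5 CPM. Every fentanyl rat was below every saline rat, with a log2 fold change of -1.41 ± 0.17 (edgeR, adjusted p = 5.86e-05). The next that fell lie on chromosome 10 at 48881049 to 48881881, with 32.3 ± 1.95 against 60.6 ± 3.95 CPM, and on chromosome 6 at 136142956 to 136145837, with 129 ± 10.7 against 216 ± 18.1 CPM. All 8 of these genes passed in each of the 16 other settings.

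**Figure D2:**
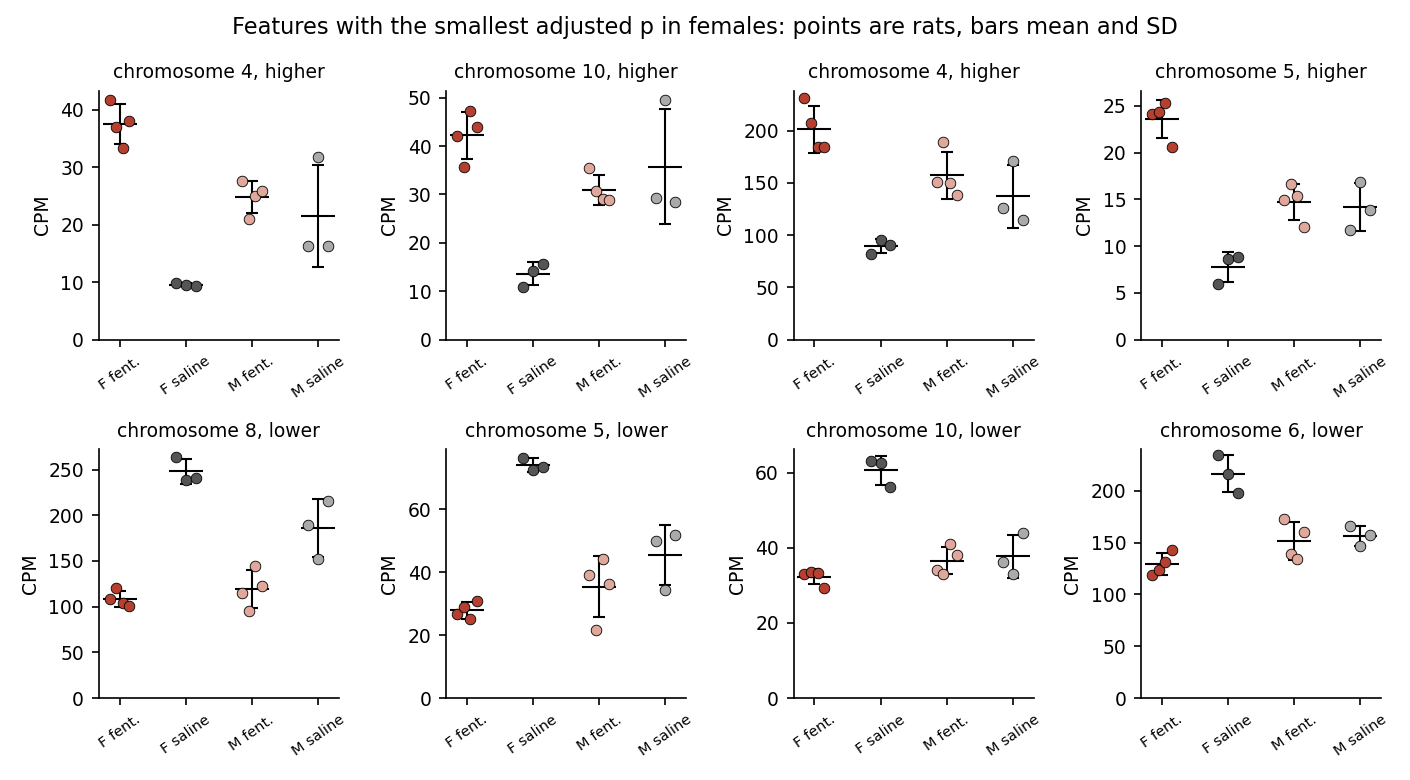
Levels in CPM (axes from 0) of the 4 genes that rose and the 4 that fell with the smallest adjusted p, in the female (F) and male (M) NAc; points are rats, bars mean and SD. Genes were picked among those whose female groups do not overlap, and the male groups overlap in 7 of 8.

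Among called genes whose groups did not overlap, the 4 of highest level that rose and the 4 that fell moved by less than 2-fold. The most abundant one that rose, at 17075771 to 17091766 on chromosome 20 (minus strand, 8 exons), measured 8281, 7008, 5630 and 4929 CPM with fentanyl and 3296, 3569 and 3318 CPM with saline. Its groups did not overlap, and fentanyl rats 1 and 2 were the farthest from saline. The log2 fold change was 0.93 ± 0.14 (edgeR, adjusted p = 0.000399). A gene at 39367692 to 39719187 on chromosome 16 measured 3488, 2132, 2269 and 1992 CPM against 1268, 1408 and 1411 CPM, and 2 other features overlap it. A gene at 88211599 to 88273254 on chromosome 11 measured 2176, 1238, 1472 and 1233 CPM against 921, 1033 and 1020.5 CPM. In both, fentanyl rat 1 was the highest by a wide margin, and the chromosome 11 call ended without saline rat 1. A gene at 94951020 to 95061174 on chromosome 6 had the smallest difference of these, 1561 ± 156 against 1271 ± 16.2 CPM, a log2 fold change of 0.30 ± 0.10 (edgeR, adjusted p = 0.0438), and its call ended in 8 of 16 other settings.

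The abundant genes that fell had log2 fold changes of -0.52 to -0.33. In size these were smaller than those of the rising genes on chromosomes 20, 16 and 11 (0.93, 0.86 and 0.62). They were larger than the 0.30 of the rising gene on chromosome 6. At 113251778 to 113272186 on chromosome 3 (plus strand, 11197 nt of exon) the levels were 1372, 1457, 1462 and 1450 CPM with fentanyl and 1723, 1869 and 1807 CPM with saline. The groups lay apart, with a log2 fold change of -0.33 ± 0.10 (edgeR, adjusted p = 0.0262), and the call ended when any 1 saline rat was left out. The other 3 were on chromosome 8 at 116873721 to 116965396 (537 ± 76.0 against 744 ± 40.9 CPM), on chromosome 19 at 9766439 to 9801942 (522 ± 37.0 against 748 ± 82.6 CPM) and on chromosome 7 at 70364813 to 70377422 (490 ± 98.4 against 674 ± 33.1 CPM). The last call also ended when any 1 saline rat was left out, and that on chromosome 8 ended without saline rat 2. The chromosome 8 gene overlaps 1 other listed feature.

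The largest fold changes upward came with uneven rats. They were picked among called genes that averaged 1 CPM or more and whose groups did not overlap. A gene at 23981219 to 24080470 on chromosome 14 (minus strand, 11 exons) measured 689, 238, 151 and 123 CPM with fentanyl and 32.6, 44.3 and 38.7 CPM with saline. All 4 fentanyl rats were above all saline rats, and rat 1 was far above the other three. Its log2 fold change was 2.95 ± 0.63 (edgeR, adjusted p = 0.0135), and the call ended without saline rat 1 or 4 or in a fit of the females alone. A feature at 145727343 to 145728473 on chromosome 7 had the same order of rats, 227, 90.0, 53.0 and 33.4 CPM against 14.3, 20.9 and 14.6 CPM, and its call ended in 6 of 16 other settings, each saline rat left out among them. By contrast, a gene at 36258595 to 36274047 on chromosome 16 measured 13.1, 7.98, 11 and 4.66 CPM against 1.11, 0.215 and 0.561 CPM, a log2 fold change of 3.75 ± 0.58 (edgeR, adjusted p = 0.000506). It passed in all 16 other settings. The largest rise among the genes so picked was at 90296141 to 90312386 on chromosome 10. It rests on 3 counts over the saline libraries against 227 over the fentanyl ones, and its call ended in 10 of 16 other settings. The next 7 log2 fold changes ran from 2.59 to 4.14, and the call of the gene at 4.14 (chromosome 10, 15589364 to 15590220) ended in 9 of 16.

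The 8 largest fold changes downward, picked in the same way, were all in genes of low level. Their saline means were 2.09 to 7.06 CPM, and their log2 fold changes ran from -2.31 to -1.62. Of the 3 called genes that fell more than 4-fold, not all are among them. At 159220979 to 159234320 on chromosome 5 (11 exons) the levels were 0, 2.00, 4.03 and 2.70 CPM with fentanyl and 7.60, 6.67 and 6.92 CPM with saline, a log2 fold change of -1.62 ± 0.42 (edgeR, adjusted p = 0.0123). Saline rats were close to each other and fentanyl rats were spread. At 10573191 to 10581516 on chromosome 10 they were 1.04, 0.444, 1.34 and 0.490 CPM against 3.15, 2.15 and 3.74 CPM. These rest on few reads: 12 counts over the 4 fentanyl and 47 over the 3 saline libraries for the last one, whose call ended without saline rat 1 or 4. That on chromosome 5 ended without saline rat 1, and 2 other listed features overlap that gene.

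The 4 fentanyl rats contributed unequally. Among the genes that rose, rat 1 was the farthest from the saline mean for 52.9%, rat 2 for 28.2%, rat 7 for 13.4% and rat 8 for 5.40%. Over all nuclear genes with a positive log2 fold change, called or not, these shares were 35.02%, 31.5%, 18.7% and 14.8%. Over the 1056 called genes that rose, the median log2 difference from the saline mean was 0.74, 0.65, 0.54 and 0.45 in the same order. Among the genes that fell, rat 2 was the farthest for 45.2% and rat 1 for 29.9%, with median differences of -0.67 and -0.59, against -0.50 in rat 7 and -0.44 in rat 8. Over all nuclear genes with a negative log2 fold change, rat 2 was the lowest of the 4 for 32.7% and rat 1 for 33.4%. Levels varied more between fentanyl than between saline rats over all nuclear genes, with median coefficients of variation of 19.2% and 11.1%. Among the genes called these were 16.0% and 8.79% for genes that rose and 15.4% and 7.88% for those that fell. Rat 1 had the lowest nuclear depth, 2.24 M, and the highest mitochondrial share, and rat 8 had the lowest such share of the 4; their part in this order and spread was not tested.

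Each library was then set against genes called without it. With a fentanyl library left out of the fit, that library lay above the whole saline range for 86.3% to 93.1% of the genes that had risen without it. It lay below that range for 82.8% to 90.4% of those that had fallen. The same was true of 32.2% to 36.9% and 33.6% to 39.3% of all nuclear genes. A saline library left out lay beyond the fentanyl range on the called side for 94.0% to 97.0% of genes that rose and 93.1% to 95.3% of genes that fell, against 22.5% to 24.0% and 23.7% to 25.4% of all nuclear genes. The left-out library was compared with the same opposite group that had made the calls, so these shares are a description.

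Properties of the genes were examined after the calls had been seen. Counts per quintile are described without a test, and shares per library were compared by exact permutation. The share called grew with level, from 2.72% up and 1.55% down in the lowest quintile of mean CPM to 16.4% and 8.66% in the highest. Local gene density went with direction. Among all nuclear genes tested, 7.99% rose and 5.46% fell. Among genes with 8 or fewer listed features within 500 kb, 249 of 2395 (10.4%) rose and 108 (4.51%) fell. Among those with 34 or more, 109 of 2631 (4.14%) rose and 239 (9.08%) fell. The median log2 fold change of all genes in that quintile was -0.12, against 0.07 in the sparsest quintile. In males the same medians were -0.01 and -0.02. Without fentanyl rat 1 the counts were 201 up and 102 down in the sparsest and 90 up and 190 down in the densest quintile, and at equal nuclear depth 240 and 90 and 92 and 204.

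Genes with many exons leaned the same way as genes in dense surroundings. Among genes with 3 or fewer exons 226 of 2350 (9.62%) rose and 111 (4.72%) fell. With 18 or more exons, 141 of 2667 (5.29%) rose and 179 (6.71%) fell. The shares over all nuclear genes were 7.99% and 5.46%. Features of 1 exon, at least 150 and under 1000 nt long, a class that includes processed pseudogenes and short noncoding RNAs, were called at 16.4% up and 8.00% down of 275. Shorter ones were called at 7.94% and 4.76% of 252, and longer ones at 8.43% and 5.81% of 344, near the shares over all nuclear genes; these limits were also set after the calls were seen. Quintiles of exonic length differed less: 9.24% to 7.23% rose and 4.92% to 6.09% fell. Genes spanning at least 500 kb, many of which encode synaptic adhesion and channel proteins in brain, were called at 3.67% up and 2.75% down of 109.

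**Figure D3:**
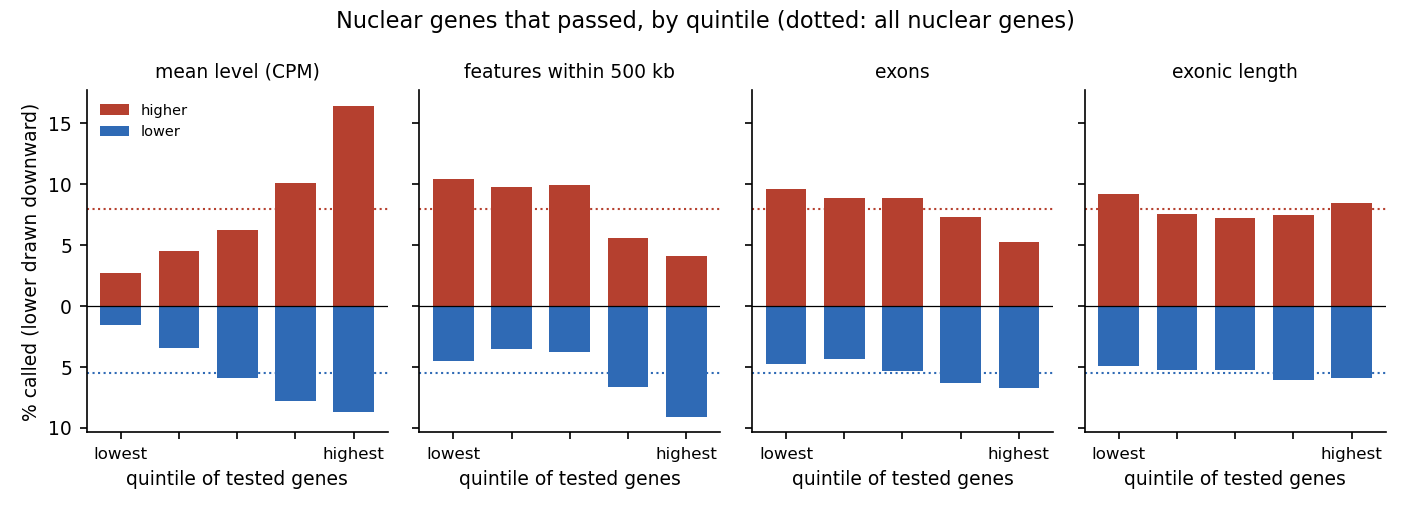
Bars give the percent of tested nuclear genes in each quintile that rose (upward) or fell (drawn downward) with fentanyl, by mean level, number of listed features within 500 kb, exons and exonic length; dotted lines mark all nuclear genes (7.99% up, 5.46% down). The densest quintile is the one in which falling genes are far more common than rising ones, 9.08% against 4.14%.

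Per library, the densest quintile took 16.2%, 16.8%, 17.4% and 16.6% of nuclear counts in fentanyl rats 1, 2, 7 and 8, and 18.5%, 17.7% and 17.9% in saline rats 1, 2 and 4. The groups did not overlap, with means of 16.7% ± 0.485 and 18.0% ± 0.414 (SD), and did not pass (exact permutation p = 0.0571, adjusted p = 0.0825). The sparsest quintile took 23.0% ± 0.889 and 21.9% ± 0.401, which overlapped (exact permutation p = 0.114, adjusted p = 0.124). These shares restate the counts above in the same libraries and are no further evidence. The quintile with the most exons took 33.4% ± 0.718 and 34.98% ± 0.208, also without overlap (exact permutation p = 0.0571, adjusted p = 0.0825). Single-exon features took 3.47% ± 0.318 and 3.42% ± 0.151, which overlapped (exact permutation p = 0.914). In males the densest quintile took 16.6% ± 0.185 with fentanyl and 16.8% ± 0.870 with saline, and the groups overlapped.

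Calls were found on every chromosome, with directions that differed. On 16 of 21 chromosomes more genes rose than fell, on 4 (1, 10, 12 and 19) more fell, and on chromosome 7 both counts were 59. The shares over all nuclear genes tested were 7.99% up and 5.46% down. Chromosome X had 70 genes up (14.8%) and 16 down (3.38%) of 474 tested. Chromosome 2 had 94 up (10.4%) and 16 down (1.76%) of 907. Chromosome 12 had 18 up (4.17%) and 26 down (6.02%) of 432. Chromosome 10 had 50 up (4.88%) and 69 down (6.74%) of 1024. Chromosome 17 was high in both directions, with 47 up and 26 down of 361. Without fentanyl rat 1, chromosome X had 55 up and 11 down, and chromosome 2 had 79 and 13.

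**Figure D4:**
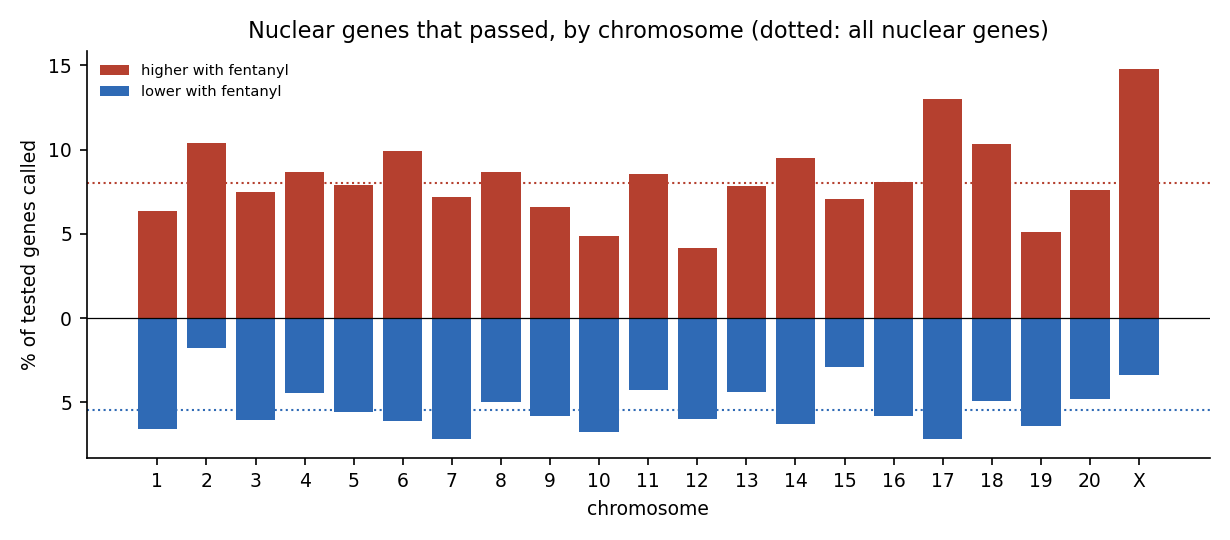
Percent of tested nuclear genes on each chromosome that rose (upward bars) or fell (downward bars) with fentanyl in the female NAc. Dotted lines mark all nuclear genes (7.99% up, 5.46% down). Chromosome X has the highest share of rising genes, 14.8%, and chromosome 12 the lowest, 4.17%.

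Some called genes lay next to each other. In map order of tested genes, the longest run of neighbours that rose was 6 genes on chromosome 3 at 119014620 to 119405453, a stretch of 391 kb with genes on both strands. Their summed level was 714, 587, 593 and 602 CPM in fentanyl rats 1, 2, 7 and 8 and 395, 429 and 442 CPM in saline rats. All 4 fentanyl sums were above all saline sums, and the genes' log2 fold changes ran from 0.32 to 1.43 with a median of 0.81. The median in males was 0.06. A run of 5 on chromosome 15 at 38069320 to 38276159 summed to 478, 453, 381 and 339 CPM with fentanyl and 245, 257 and 271 CPM with saline. In each of these runs 3 of the genes overlap another listed feature, so their counts may not be separate. A further 14 runs of 3 rose and 4 runs of 3 fell. Most called genes had no such neighbour, with 845 rising and 614 falling runs of 1 gene. Of all nuclear genes tested, 7.99% rose and 5.46% fell. Whether runs are more frequent than these shares would give was not tested.

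Of 2240 windows of 1 Mb with a tested gene, 15 held 5 or more falling genes and 3 held 5 or more rising ones. Over all nuclear genes 5.46% fell and 7.99% rose, and in the quintile of densest surroundings 9.08% fell and 4.14% rose. Of 46 genes tested between 11 and 12 Mb on chromosome 7, 13 fell and 0 rose. The summed level of the 13 was 913, 711, 877 and 914 CPM with fentanyl and 1267, 1221 and 1212 CPM with saline, so the groups were apart and fentanyl rat 2 was the lowest. Between 133 and 134 Mb on chromosome 6, 7 of 40 genes fell, all on the plus strand and 6 of them with 1 exon. Their sum was 519, 512, 588 and 564 CPM against 802, 634 and 719 CPM. The median over all 40 genes of that window was -0.49 in females and 0.04 in males. Between 84 and 85 Mb on chromosome 1, 7 of 24 fell and 1 rose. Windows were ranked by their calls, so these are descriptions.

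Chromosome MT took a larger share of the counts in every fentanyl rat than in any saline rat. Its features took 36.7%, 31.0%, 29.4% and 29.2% of all counts in fentanyl rats 1, 2, 7 and 8 and 22.1%, 26.1% and 25.1% in saline rats 1, 2 and 4. The means lay 7.12 percentage points apart (31.6% ± 3.54 against 24.4% ± 2.12; exact permutation test, two-sided, p = 0.0286, the smallest that 35 regroupings allow, adjusted p = 0.0825). The adjustment is over 13 shares and totals compared per sex, none of which passed after it in either sex (lowest adjusted p 0.0825 in females and 0.743 in males). Without fentanyl rat 1 the difference was 5.40 points. In males the shares were 27.8% ± 0.661 and 28.4% ± 3.23 and overlapped. A larger mitochondrial share lowers the CPM of all nuclear genes alike before scaling; with totals and scaling factors from nuclear genes only, 1785 nuclear genes passed, of which 1768 were among the 1778.

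The 13 features of at least 200 nt lie in the order in which mammalian mitochondrial DNA carries its protein genes, and they are called here by that place; the names are textbook knowledge and are not in the files. Of these 13, 7 rose with fentanyl and 0 fell. The fold was positive for 12, with a median log2 fold change of 0.64 and a range of -0.09 to 1.01, and 10 did not overlap between the groups. Over all nuclear genes tested, 7.99% rose, and the groups did not overlap for 24.9%, with fentanyl above for 12.7%. The 13 mitochondrial features do not stand for independent genes, since most are cut from the same precursor. Fentanyl rat 1 was the highest library for 11 of the 13. Without it the median was 0.45, and 7 rose, 11 of 13 being positive. Without saline rat 1, 4 rose. At equal nuclear depth 7 rose, with a median of 0.64.

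The subunits of complex I, which takes electrons from NADH, ranged widely. The feature at the Nd1 place (2740 to 3694, plus strand) measured 65776, 45892, 40706 and 40431 CPM in fentanyl rats 1, 2, 7 and 8 and 23400, 32183 and 29421 CPM in saline rats. All fentanyl rats were above all saline rats, with a log2 fold change of 0.77 ± 0.17 (edgeR, adjusted p = 0.00520). The Nd5 place (11736 to 13565) gave 0.73 ± 0.17, the Nd3 place (9451 to 9798) 0.94 ± 0.20 and the Nd4l place (9870 to 10166) 0.69 ± 0.14, and all 3 passed. The Nd2 place gave 0.36 ± 0.14 and the Nd6 place, the only protein gene on the minus strand, 0.45 ± 0.18. Neither passed, though their groups did not overlap. The Nd4 place (10160 to 11537) measured 1246 CPM in fentanyl rat 1 and 511, 576 and 594 CPM in the others, against 629, 704 and 758 CPM in saline rats. Its log2 fold change was 0.07 ± 0.27, and -0.32 without rat 1.

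The other complexes were split in the same way. At the Atp8 place (7758 to 7961), which encodes a small subunit of ATP synthase, levels were 27964, 21086, 18593 and 16476 CPM with fentanyl and 9051, 11703 and 10637 CPM with saline. The groups were well apart, with a log2 fold change of 1.01 ± 0.16 (edgeR, adjusted p = 0.000574). The Atp6 place (7919 to 8599), which overlaps the end of Atp8, gave 0.14 ± 0.12 and did not pass. Of the cytochrome oxidase (complex IV) places, Cox2 (7006 to 7689) rose by 0.77 ± 0.19 on the log2 scale (edgeR, adjusted p = 0.0121). Cox1 gave 0.33 ± 0.14 without passing, and Cox3 (8599 to 9382) gave -0.09 ± 0.11. Cox3 measured 17782, 17071, 16954 and 17240 CPM with fentanyl and 16800, 19416 and 18784 CPM with saline, so its groups overlapped. The Cytb place (14136 to 15278), the mitochondrial subunit of complex III, rose by 0.64 ± 0.16 (edgeR, adjusted p = 0.0123). Per kb of feature, the level at the Atp8 place was 103087 CPM with fentanyl and 51292 CPM with saline, and at the Cox3 place 22018 and 23384 CPM.

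**Figure D5:**
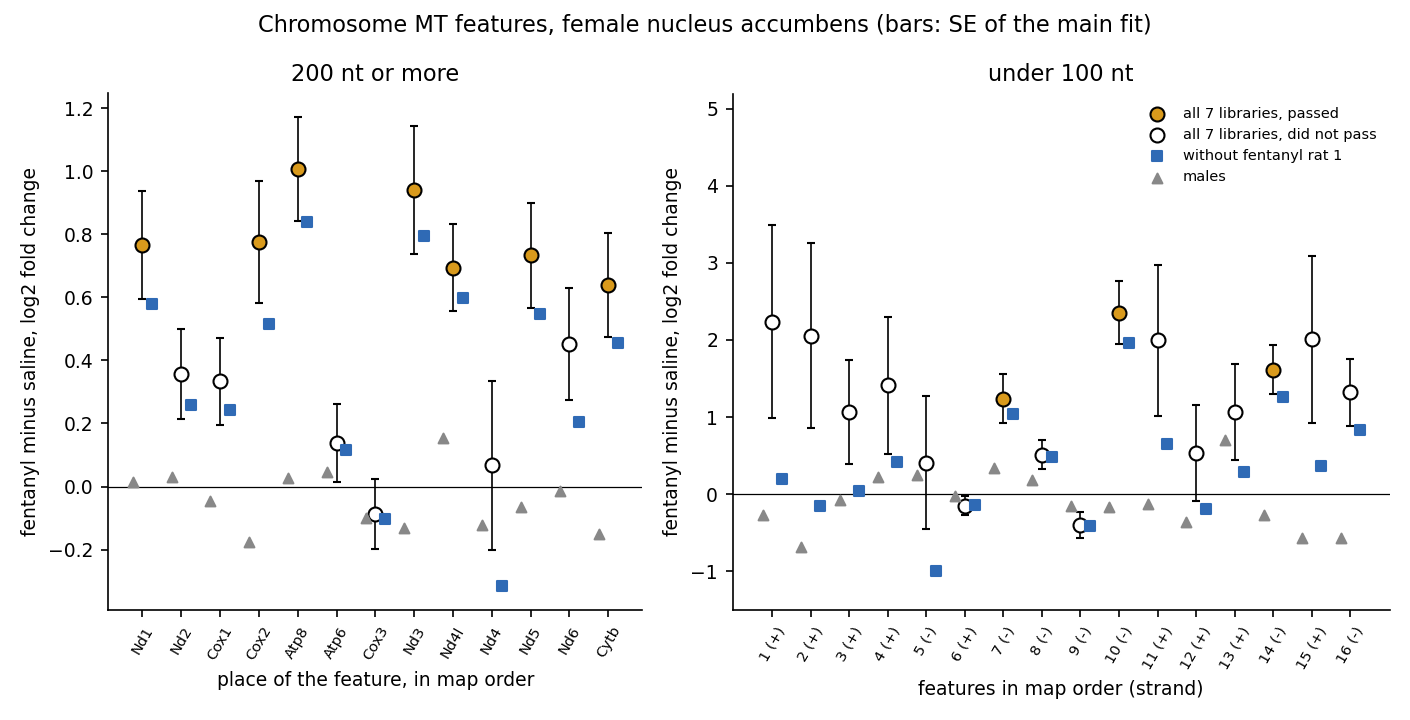
Log2 fold change, fentanyl minus saline, for chromosome MT features in map order (left, 13 features of 200 nt or more by place; right, 16 tested features under 100 nt by number and strand); bars are the SE over all 7 libraries, squares leave out fentanyl rat 1 and triangles are males. Of the 13 long features 7 passed and Cox3 alone lies below 0; among the short ones 3 passed, all on the minus strand.

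Short features, which have the size of transfer RNAs and lie between the protein genes, varied more between rats. Of 22 listed under 100 nt, 16 were tested, 3 rose and 0 fell. Over all nuclear genes tested, 7.99% rose and 5.46% fell. The features under 100 nt took 6.64%, 5.16%, 4.22% and 3.27% of the mitochondrial counts in fentanyl rats 1, 2, 7 and 8. In saline rats this share was 1.34%, 1.73% and 1.65%. The groups did not overlap (4.82% ± 1.44 against 1.58% ± 0.207; exact permutation p = 0.0571, adjusted p = 0.0825). Most of it came from 1 feature at 6865 to 6933 on the minus strand, with 27863, 16002, 12127 and 8870 CPM against 2292, 3833 and 3374 CPM. Its log2 fold change was 2.36 ± 0.41 (edgeR, adjusted p = 0.00464), and 1.96 without fentanyl rat 1. It overlaps the end of the Cox1 place (5323 to 6867) on the other strand, only at positions 6865 to 6867. Since no source used here states the strand setting, reads of the Cox1 end cannot be told apart from those of this feature. The feature at 14062 to 14130 (minus strand) measured 499, 253, 244 and 214 CPM against 74.7, 114 and 106 CPM, and that at 5010 to 5078 (minus strand) 59.0, 42.1, 32.5 and 33.6 CPM against 11.3, 23.4 and 18.3 CPM. In both every fentanyl rat was above every saline rat, and the call of the last one ended without fentanyl rat 2 or saline rat 1 or 4.

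Most of the other short features were high in 1 rat only. At 1026 to 1093 (plus strand) the levels were 366, 10.6, 12.6 and 44.9 CPM with fentanyl and 19.8, 17.2 and 38.1 CPM with saline, so that rats 2 and 7 were below saline and rat 1 far above it. Its log2 fold change of 2.06 ± 1.21 did not pass (edgeR, adjusted p = 0.289) and was -0.15 without rat 1. Rat 1 was the highest library for 13 of the 16. The median log2 fold change over the 16 was 1.28, and 0.32 without rat 1. Of the 9 on the plus strand none passed (lowest adjusted p = 0.206 by edgeR), and 3 of the 7 on the minus strand did.

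The same contrast was then read in males and in the VTA of the same females. In the male NAc 0 nuclear genes passed by edgeR, where 850 (6.43%) reached 0.05 before adjustment; DESeq2 called 6 and limma voom 0. In males the median log2 fold change was 0.06 over the 1056 genes that rose in females and -0.09 over the 722 that fell. The sign was shared by 68.3% of called genes, against 58.3% of all nuclear genes tested. In VTA females, with 3 fentanyl and 2 saline rats, 0 of 14374 nuclear genes passed by edgeR, where 1088 (7.57%) reached 0.05 before adjustment and DESeq2 called 36. There the medians were 0.14 and -0.16, and the sign was shared by 73.7% of called genes against 58.9% of all. These VTA libraries come from the same rats, so they do not replicate the rats.

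The difference between the sexes was tested directly. The female effect minus the male effect passed for 101 nuclear genes (0.764%), 84 (0.635%) with a higher and 17 (0.129%) with a lower value in females. Of these, 99 were among the 1778 called in females, of which 5.57% thus differed from males. The count was 23, 49 and 41 without saline female 1, 2 or 4, and 166 and 294 without fentanyl female 2 or 8. It was 59, 43 and 43 without fentanyl male 1, 3 or 7, and 20 without saline male 3. Among differing genes that averaged 1 CPM or more in females, the largest difference upward was at 43694183 to 43694611 on chromosome 14 (1 exon). This place overlaps 1 other listed feature on the other strand. There, fentanyl females had 6.21, 8.65, 8.60 and 7.11 CPM and saline females 0.371, 2.58 and 2.43 CPM. Fentanyl males had 4.06, 5.32, 5.29 and 3.94 CPM and saline males 6.82, 8.31 and 5.74 CPM, so the order of the treatments was opposite in the sexes. The difference of effects was 2.67 ± 0.49 on the log2 scale (edgeR, adjusted p = 0.00957). For ENSRNOG00000047067 it was 1.75 ± 0.27 (edgeR, adjusted p = 0.00424), with male means between those of the female groups. For ENSRNOG00000034066 the male log2 fold change was -0.64 ± 0.12, on the same side as in females without passing (edgeR, adjusted p = 0.322), and the difference of -0.55 ± 0.18 did not pass either (adjusted p = 0.137).

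The mitochondrial features were read in the same libraries. In males the median log2 fold change of the 13 long features was -0.05, with 5 of 13 positive and 0 passing by edgeR. The difference between the sexes was positive for all 13 and passed for 1, the Atp8 place, at 0.98 (edgeR, adjusted p = 0.0383). In VTA females all 13 were positive with a median of 0.39, and 0 passed (adjusted p of 0.633 to 0.760, edgeR).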

How the data were processed

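RNA from NAc and VTA punches of fentanyl and saline Sprague Dawley rats was sequenced as paired ends to about 22 M reads per sample, per the labels' protocols. The deposited files hold raw counts per feature, 1 table per library, not normalized by the authors, per the file headers. The tools named, with no role or order, are STAR 2.5.2b, Trimmomatic 0.36, Subread 1.5.2, DESeq2 and featureCounts, per the submitters' processing notes. The sources used here do not state build, strand setting or the handling of multiply aligned reads.

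Groups came from the labels. The 14 NAc libraries were fitted together as 4 groups of sex and treatment with edgeR 4.0.16 (R 4.3.3): TMM scaling, filterByExpr, robust dispersion, quasi-likelihood F test, Benjamini-Hochberg adjustment over 13248 features. Standard errors were derived from the F statistic. The VTA was fitted separately (14400 features). For shares of counts, exact permutation tests (two-sided) were used. Alternatives used DESeq2 1.42.0, limma 3.58.1 (voom), other scalings and filters, libraries left out and thinning to 1 nuclear depth. On simulated counts for this female comparison (13248 genes), 44% of 1.5-fold and 87% of 2-fold changes were recovered, with 9 false calls. The changed genes, 100 per fold, were picked above a minimum mean count, and every gene was given the same spread. Recovery and false calls can therefore differ in the real counts, most of all at low level.

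The comparison, gene lists and naming rule were chosen with earlier results of these data known; quintiles, windows and runs were chosen after the calls were seen. None of 32552 IDs matched a symbol, so the 39 gene lists, the condition on symbols and the marker check were not used. Nuclear genes to be named had to be called, to average 1 CPM or more and to show no overlap of the groups: the 8 largest fold changes, 4 smallest adjusted p and 4 highest levels each way, and for the sex difference the 3 largest differences each way; only some are printed. Total counts of 3.54 M to 5.01 M per female NAc library set the precision. The labels give 1 rat per library, and the spread between libraries includes technical variation.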

Additional observations from a re-analysis of the deposited data

Results flagged for a closer look

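Of 74 sets of 4 fentanyl values tested for a value apart from the rest, 15 held one. Chance gives about 1 in 20 where sets are independent. These sets share the same 4 libraries, so 15 of 74 cannot be set against that rate. In 13 of the 15 the value was that of fentanyl rat 1 on chromosome MT. Among long features these were 28435 CPM at the Nd2 place, 66928 CPM at the Cox1 place, 1246 CPM at the Nd4 place and 4252 CPM at the Nd6 place. Among short features they were 60.4 CPM at 1 to 67, 366 CPM at 1026 to 1093, 144 CPM at 2665 to 2739, 14.8 CPM at 3695 to 3763, 40.02 CPM at 3761 to 3831, 29.7 CPM at 6937 to 7004, 499 CPM at 14062 to 14130, 48.7 CPM at 15280 to 15346 and 390 CPM at 15348 to 15415. At the last of these the other 3 fentanyl rats had 145, 147 and 147 CPM. In the other two the value was low: 29.4 CPM in rat 8 for the chromosome 10 gene at 48881049 to 48881881, and 1372 CPM in rat 1 for the chromosome 3 gene at 113251778 to 113272186.

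The effect differed between the sexes, by the test of the difference, for 15 of the features described. On the log2 scale, female minus male, it was 1.75 for ENSRNOG00000047067, 1.83 for ENSRNOG00000032825, 0.97 for the chromosome 4 gene at 48852827 to 48928372 and 1.54 for the chromosome 5 feature at 152325871 to 152326778. It was 0.87 for the most abundant rising gene (chromosome 20), 0.96 for the chromosome 16 gene at 39367692 to 39719187 and 0.98 for the Atp8 place. Among falling genes it was -0.86 at 48881049 to 48881881 on chromosome 10 and -0.70 at 136142956 to 136145837 on chromosome 6. The largest differences were 2.67 at 43694183 to 43694611 on chromosome 14, 2.56 at 73757664 to 73758388 on chromosome X and 2.502 at 124004419 to 124005426 on chromosome 3. In the other direction they were -2.38 on an unplaced scaffold, -1.72 at 84328114 to 84338483 on chromosome 1 and -1.31 at 225309246 to 225329770 on chromosome 1. Of these calls, that on the scaffold ended in 15 of 21 other settings and that on chromosome 3 in 9 of 22. Those on chromosome 1 at 225309246 and 84328114 ended in 8 and 5 of 21. Those on chromosomes X and 14 ended in 3 and 2 of 21. These features were named for their effect in females or for the difference itself, which favours a large difference.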

How the results depend on the processing

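The count of 1778 nuclear genes was 1093 with the female groups alone, and 749 to 2008 with 1 library left out. It stayed between 1554 and 2059 with RLE scaling, nuclear features only, DESeq2, voom, both other filters and equal nuclear depth, the last chosen after seeing the data. With the replicate block it was 669, of which 71.4% rose. The 2 female groups share 2 replicate numbers, with residual correlations of 0.0177 and 0.0133, which do not show that the numbers pair rats. The 7 long mitochondrial features that rose were 1 with the replicate block and 4 to 7 with 1 library left out. The 3 short ones were 5 by DESeq2, 5 with the replicate block and 2 to 4 with 1 library left out. The difference in mitochondrial share was 5.40 to 7.96 points with 1 library left out, with exact permutation p of 0.0667 to 0.133, where regrouping can give no p below 0.05. The 101 genes that differed between the sexes were 251 by DESeq2, 383 where low counts were kept, 2 with the replicate block within sex and 20 to 294 with 1 library left out. The count of 0 in VTA females was 36 by DESeq2, 414 where low counts were kept and 0 to 11 with 1 library left out. Signs reversed for 4 mitochondrial features that had not passed: the Nd4 place (-0.033 by voom, -0.32 to 0.21 with 1 library left out), 3761 to 3831 (-0.47 by voom, -1.0 to 0.77), 1026 to 1093 (-0.15 to 2.501) and 7693 to 7756 (-0.19 to 0.86), each time lowest without fentanyl rat 1. The cause was not tested in any of these. Low levels limit the falling genes of largest fold.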
